A study of Mus musculus with 6 samples.

Results

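The 8 genes described here encode 5 fibroblast growth factors (FGFs), Fgf1, Fgf2, Fgf7, Fgf10 and Fgf18, and 3 of their receptors, Fgfr1, Fgfr2 and Fgfr3. They were picked by symbol from the 30406 genes listed for every library, and all 8 were found. The rule used none of their measured values, but earlier results of these data were known when it was set. Expression was measured in single nuclei of C57BL/6ScNj mice, 12 weeks old, as counts of unique molecular identifiers (UMIs, 1 per captured transcript). Periosteum, the tissue that lines the outer surface of bone, came from uninjured tibias in 2 libraries, each a pool of 4 mice. Injured periosteum together with the hematoma came from tibias at 3 days (2 libraries), 5 days (1 library) and 7 days (1 library) after an open, non-stabilised fracture, each a pool of 4 to 9 mice. Male and female mice were mixed, the labels give all groups the same genotype, and nuclei were sorted on a nuclear dye. The hematoma was taken only after fracture, so its cells and the injury itself cannot be told apart.

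FGFs are secreted proteins that bind heparan sulfate chains and receptor tyrosine kinases, and the receptors signal mainly through the MAP kinase pathway. FGF7 and FGF10 act mainly on the splice form of FGFR2 found in epithelia, FGF1 binds all receptors, and FGF18 acts on FGFR3 in cartilage. FGF2 is a long-known mitogen of mesenchymal cells, and FGFR3 limits the proliferation of growth plate chondrocytes. The poly(A)-primed UMI counts cover whole genes and do not separate splice forms.

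The 6 libraries held 655 to 4712 barcodes with 1499281 to 29796296 UMIs, at medians of 892 to 2806 UMIs per barcode, and pairs of libraries shared 0 to 7 barcodes. After filtering and removal of myogenic nuclei 6402 nuclei remained, of which 2413 were stromal. The stromal nuclei comprised nuclei like stem/progenitor cells (SSPC-like), fibroblasts, injury-induced fibrogenic cells (IIFC-like), osteoblasts and chondrocytes. Clusters were named from marker genes, with the 8 FGF genes kept out of clustering, and 3 clusters with 510 nuclei stayed unnamed. SSPC markers summed to 2655 CPM (UMIs of a gene scaled to 1e+06 UMIs of the nuclei concerned) in SSPC-like nuclei and to 397 CPM in fibroblast-like nuclei, the next highest. The fibroblast marker list was higher in Schwann-like nuclei (7521 CPM) than in fibroblast-like nuclei (4777 CPM), so it did not separate these 2 populations. Uninjured replicate 1 was the shallowest library in the stromal sums tested, with 129295 stromal UMIs against 391399 to 1785156 in the other 3 libraries tested. Replicates were separate pools of mice, and intervals on CPM and on shares of nuclei cover counting error only.

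**Figure D1:**
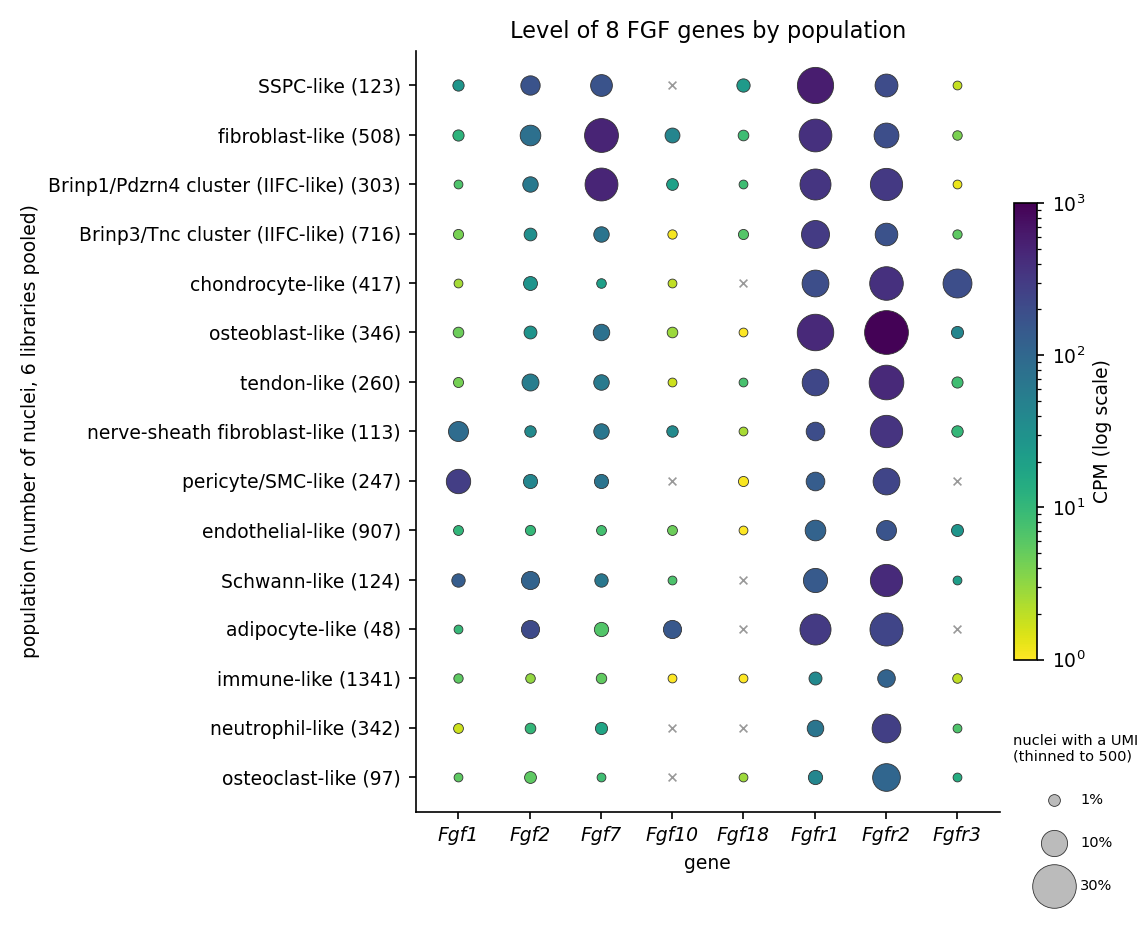
Level of the 8 genes in each population, all 6 libraries pooled. The colour of a dot is CPM on a log scale, its area is the percentage of nuclei with a UMI after each nucleus was thinned to 500 UMIs (the smallest dots had none left after thinning), and a cross marks a population with no UMI. IIFC-like nuclei are shown as their 2 clusters. Fgf7 was highest in fibroblast-like nuclei, Fgf1 in pericyte/SMC-like nuclei, Fgfr2 in osteoblast-like nuclei and Fgfr3 in chondrocyte-like nuclei.

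The leading population varied between genes, and SSPC-like nuclei led for both a receptor, Fgfr1, and a ligand, Fgf18 (the dot plot of levels by population). Over stromal nuclei, the level per 10 kb of gene span was 59.5 CPM for Fgfr1, 38.3 CPM for Fgf7, 30.1 CPM for Fgfr2 and 24.0 CPM for Fgfr3. Fgf2 had 8.54 CPM per 10 kb, and Fgf18, Fgf10 and Fgf1 had between 0.773 and 2.15 CPM per 10 kb. Fgf7 was therefore the ligand with the highest stromal level per length, and Fgf1 had the lowest.

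Fgf7 (ENSMUSG00000027208, chromosome 2, 126034658 to 126091185 of GRCm38, plus strand) encodes keratinocyte growth factor. Its pooled level was 496 CPM in fibroblast-like nuclei (95% exact Poisson interval 466 to 528, 508 nuclei) and 200.0 CPM in IIFC-like nuclei (188 to 213, 1019 nuclei). SSPC-like nuclei followed with 172 CPM, an interval that overlapped that of IIFC-like nuclei. Fibroblast-like and IIFC-like nuclei gave 39.5% and 41.3% of the 2532 Fgf7 UMIs found in all populations. After thinning to 500 UMIs, 17.6% of fibroblast-like nuclei had a Fgf7 UMI, against 0.523% of immune-like nuclei, taken as the background share. The median depths of these populations before thinning were 2511.5 and 2299 UMIs.

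The IIFC-like level of Fgf7 was that of 1 of its 2 clusters. The cluster led by Brinp1 and Pdzrn4 (303 nuclei) had 490 CPM with an interval of 457 to 526, which overlapped that of fibroblast-like nuclei. The larger cluster led by Brinp3 and Tnc (716 nuclei) had 0 to 147 CPM by library. The Brinp1/Pdzrn4 cluster scored close to fibroblast as well as to IIFC markers (2.78 for IIFC and 2.34 for fibroblast, mean log2 ratio to the median cluster), and Fgf7 was itself among its 10 leading genes, so its high level is a description of the cluster. At the coarser resolution of 0.8 it merged with the fibroblast-like nuclei.

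In fibroblast-like nuclei, Fgf7 had 409 and 755 CPM in the uninjured replicates 1 and 2 and 313 and 466 CPM in the day 3 replicates 1 and 2, with 342 CPM on day 5 and 214 CPM on day 7. The uninjured and day 3 ranges overlapped, and day 7 was the lowest of the 6 libraries. Relative to the pooled uninjured nuclei, the level was 0.474-fold at day 5 (95% counting interval 0.401 to 0.558) and 0.296-fold at day 7 (0.205 to 0.415), without a replicate at either day. Uninjured replicate 2 gave 507 of the 535 pooled uninjured UMIs, so these ratios mostly compare with that replicate. Their intervals leave out the difference between the uninjured replicates, and day 5 (342 CPM) was nearer to replicate 1 (409 CPM). Single nuclei carried a large part of these sums, with 88 of 507 UMIs in 1 nucleus of uninjured replicate 2 and 54 of 196 in 1 nucleus of day 3 replicate 2.

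The Brinp1/Pdzrn4 cluster had 189 and 761 CPM of Fgf7 in the uninjured libraries, 177 and 242 CPM at day 3, 577 CPM at day 5 and 608 CPM at day 7. The 2 uninjured values rested on 2 and 53 UMIs, and 32 of the 53 came from 1 nucleus. Days 5 and 7 were above both day 3 libraries in this cluster, while in fibroblast-like nuclei day 7 was below both (the plot of Fgf7 by library). Between the 2 late libraries, the day 7 level was 1.05-fold that of day 5 in the cluster (0.858 to 1.28) and 0.625-fold in fibroblast-like nuclei (0.426 to 0.894). Of all stromal Fgf7 UMIs, fibroblast-like nuclei held 75.7% and 76.4% before injury. This share was 53.8% and 48.5% in the day 3 replicates, 22.7% on day 5 and 18.2% on day 7. They were 42 of 84 and 132 of 305 stromal nuclei in the uninjured libraries and 102 of 658 at day 7.

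**Figure D2:**
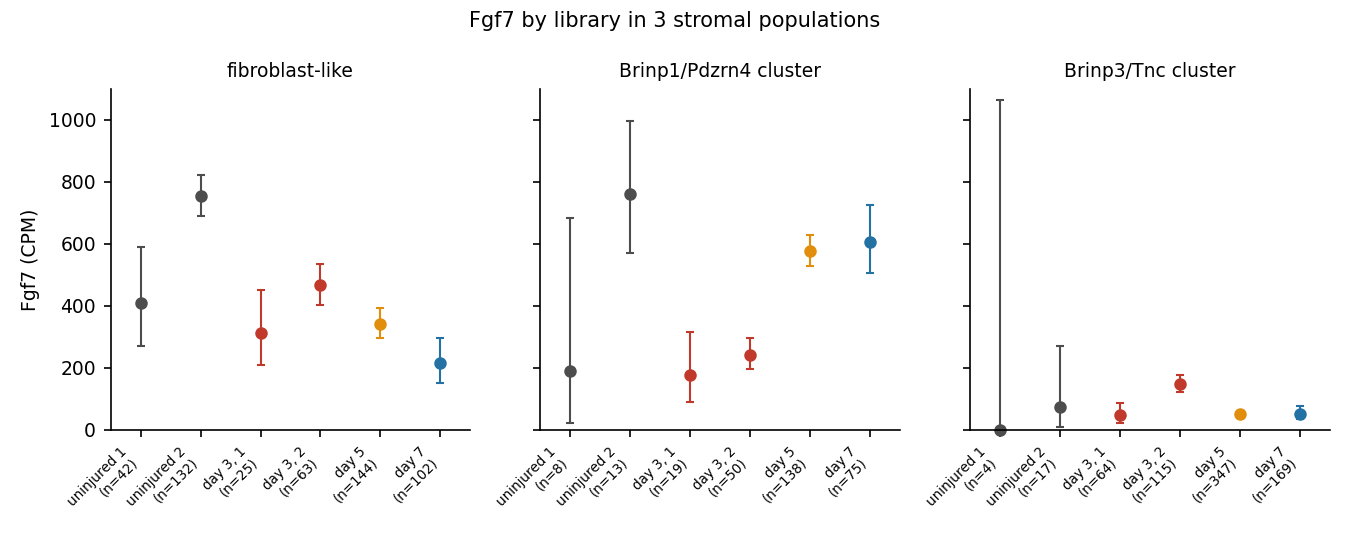
Fgf7 in CPM by library in fibroblast-like nuclei and in the 2 IIFC-like clusters. Points are libraries and bars are 95% exact Poisson intervals (counting error only). The Brinp1/Pdzrn4 cluster reached 577 and 608 CPM at days 5 and 7, and the Brinp3/Tnc cluster lay between 0 and 147 CPM.

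Fgf10 (ENSMUSG00000021732, chromosome 13, 118669791 to 118792115, plus strand) is required for limb bud outgrowth and for the growth of fat precursors. It was highest in adipocyte-like nuclei, with 153 CPM (112 to 204) from 47 UMIs in 48 nuclei. Fibroblast-like nuclei had 43.7 CPM and nerve-sheath fibroblast-like nuclei 37.4 CPM, and these intervals overlapped. No Fgf10 UMI was found in SSPC-like, pericyte/SMC-like, neutrophil-like or osteoclast-like nuclei. The adipocyte-like level rested on few nuclei, since 8 of 10 UMIs of uninjured replicate 1 and 8 of 9 of day 5 came from 1 nucleus each.

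In fibroblast-like nuclei, Fgf10 had 14.6 and 32.7 CPM in the uninjured libraries (1 and 22 UMIs), 0 and 19.0 CPM at day 3 (0 and 8 UMIs), 87.3 CPM at day 5 (52 UMIs) and 29.7 CPM at day 7 (5 UMIs). Day 5 was the highest of the 6 libraries, and its UMIs lay in 21 of 144 nuclei. The level at day 5 was 2.81-fold that of the pooled uninjured nuclei (1.69 to 4.81), and that at day 7 was 0.340-fold that of day 5 (0.106 to 0.846). Uninjured replicate 2 gave 22 of the 23 pooled uninjured UMIs, and the interval leaves out the difference between the uninjured replicates. Fgf7 in the same nuclei stood lower at day 5 than in either uninjured library. At resolution 0.8 the pooled Fgf10 level of fibroblast-like nuclei was 33.2 CPM.

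Fgf1 (ENSMUSG00000036585, chromosome 18, 38838673 to 38929472, minus strand) encodes acidic FGF. Pericyte/SMC-like nuclei, the mural cells of vessels, had the highest pooled level at 281 CPM (249 to 318) and 53.9% of the 490 Fgf1 UMIs. Schwann-like nuclei had 135 CPM and nerve-sheath fibroblast-like nuclei 89.6 CPM, with overlapping intervals, and SSPC-like nuclei were next at 27.4 CPM. After thinning, 8.50% of pericyte/SMC-like nuclei had a Fgf1 UMI, against 0.149% of immune-like nuclei, at median depths of 2729 and 2299 UMIs.

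The Fgf1 level of pericyte/SMC-like nuclei was 482 and 497 CPM in the 2 uninjured libraries (61 and 64 nuclei). It was 0 and 117 CPM at day 3 (4 and 9 nuclei), 32.2 CPM at day 5 (77 nuclei) and 0 CPM at day 7 (32 nuclei). Each injured library was below both uninjured libraries, and the uninjured UMIs were spread over 31 and 47 nuclei. The zeros at day 3 and day 7 allow up to 346 and 67.3 CPM (3 UMIs). The Poisson interval of that day 3 library reached the uninjured ones, and 7 of the 9 UMIs of day 3 replicate 2 came from 1 nucleus. Day 5 stood at 0.0654-fold the pooled uninjured level (0.0310 to 0.122). No edgeR test was run in these nuclei, because the day 3 libraries held fewer than the 10 nuclei set as a minimum.

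The smooth muscle and pericyte markers of these same nuclei also differed between libraries (the plot of Fgf1 and mural markers). Myh11, a smooth muscle myosin, was at 4959 and 4749 CPM in the uninjured libraries, 806 and 1446 CPM at day 3, 577 CPM at day 5 and 404 CPM at day 7. Acta2, smooth muscle actin, was at 2424 and 2241 CPM in the uninjured libraries and between 219 and 899 CPM after fracture. The pericyte markers did not all move together. Rgs5 was at 250 and 324 CPM in the uninjured libraries and had no UMI in the 4 nuclei of day 3 replicate 1. It was at 1032 to 1173 CPM in the other 3 libraries. Abcc9 was at 110 and 246 CPM in the uninjured libraries, 115 CPM in the 4 nuclei of day 3 replicate 1, and 544 to 718 CPM in the other 3 libraries. Notch3 overlapped between groups, at 605 and 1822 CPM before injury and between 461 and 1850 CPM after it, and Kcnj8 had at most 9 UMIs in any library. Fgf1 was thus high in the libraries whose mural nuclei were rich in smooth muscle markers, and the part of this make-up in the Fgf1 level was not tested. Fgf1 was also at 176 and 182 CPM in uninjured Schwann-like nuclei, with no UMI in Schwann-like nuclei of any injured library. Those libraries held few Schwann-like UMIs, and the zeros allow 95.3 CPM or more.

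**Figure D3:**
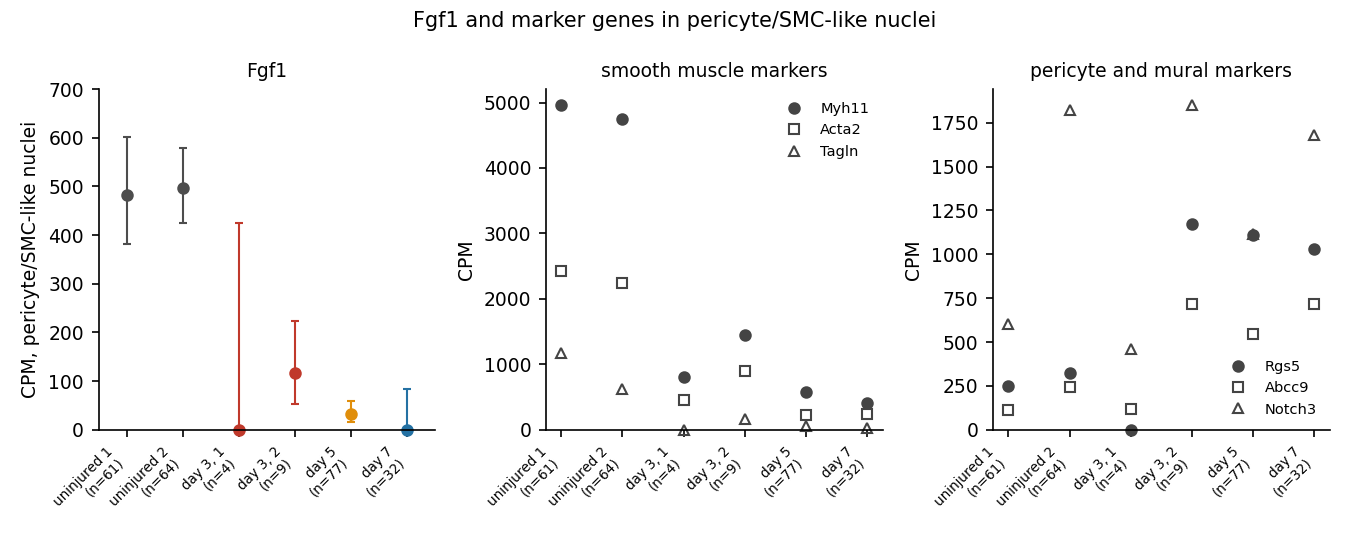
Fgf1, smooth muscle markers (Myh11, Acta2, Tagln) and pericyte markers (Rgs5, Abcc9, Notch3) in CPM by library in pericyte/SMC-like nuclei, with 95% exact Poisson intervals as bars for Fgf1. Fgf1 was at 482 and 497 CPM in the uninjured libraries and at 0 to 117 CPM after fracture, and Myh11 was at 4749 CPM or more in the uninjured and at most 1446 CPM in the injured libraries.

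Fgf2 (ENSMUSG00000037225, chromosome 3, 37348346 to 37410108, plus strand) encodes basic FGF. It was highest in adipocyte-like (212 CPM, 163 to 270) and SSPC-like nuclei (170 CPM, 137 to 208), whose intervals overlapped, and Schwann-like nuclei had 113 CPM. Fibroblast-like nuclei had 80.4 CPM and IIFC-like nuclei 41.9 CPM. The Schwann-like value leaned on day 3 replicate 2, where 14 of 15 UMIs came from 1 nucleus. SSPC-like nuclei had 161 and 247 CPM of Fgf2 in the uninjured libraries, and the 39 SSPC-like nuclei of the injured libraries held 2 UMIs, both at day 5. In fibroblast-like nuclei, Fgf2 had 58.4 and 74.4 CPM in the uninjured libraries, 268 and 121 CPM at day 3, 45.3 CPM at day 5 and 35.7 CPM at day 7. The day 3 libraries were above the uninjured and later ones there, with 10 of 24 UMIs of day 3 replicate 1 in 1 nucleus. The counting interval of day 3 replicate 2 overlapped those of both uninjured libraries. In the day 3 test of fibroblast-like and SSPC-like nuclei only, Fgf2 had a log2 fold change of 0.43 (edgeR adjusted p = 0.777) and was not called.

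Fgf18 (ENSMUSG00000057967, chromosome 11, 33117430 to 33147400, minus strand) was near the limit of detection, with 87 UMIs in all populations. SSPC-like nuclei had the highest level, 23.7 CPM from 13 UMIs (12.6 to 40.6), followed by fibroblast-like nuclei at 8.44 CPM, with overlapping intervals. No UMI was found in chondrocyte-like nuclei. By library, stromal nuclei had 30.9 and 14 CPM when uninjured, 20.4 and 5.60 CPM at day 3, 4.90 CPM at day 5 and 1.33 CPM at day 7.

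Fgfr1 (ENSMUSG00000031565, chromosome 8, 25513654 to 25575718, plus strand) is the main FGF receptor of mesenchyme. It was found at a high level across the stroma, with 577 CPM in SSPC-like nuclei (515 to 644), 454 CPM in osteoblast-like, 385 CPM in fibroblast-like and 315 CPM in IIFC-like nuclei. The first 3 intervals did not overlap their neighbours. This pooled order mixed time points, since 84 of the 123 SSPC-like nuclei were uninjured, and it did not hold within each library. SSPC-like and osteoblast-like nuclei had 664 and 699 CPM in uninjured replicate 2, with overlapping intervals, and 191 and 368 CPM at day 7. Shares of nuclei with a Fgfr1 UMI after thinning were 20.3% in SSPC-like, 20.6% in osteoblast-like and 1.49% in immune-like nuclei. In fibroblast-like nuclei, Fgfr1 was at 467 and 460 CPM in the uninjured libraries, 279 and 355 CPM at day 3, 337 CPM at day 5 and 351 CPM at day 7. All 4 injured libraries lay below both uninjured ones, but their counting intervals all overlapped that of uninjured replicate 1. In the day 3 test of fibroblast-like and SSPC-like nuclei only, Fgfr1 had a log2 fold change of -0.80 (edgeR adjusted p = 0.294). In chondrocyte-like nuclei the day 7 library stood at 1.67-fold the day 5 library (1.32 to 2.11).

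Immune-like nuclei of the uninjured libraries had a Fgfr1 level below that of stromal nuclei (495 and 541 CPM) and above that of later immune-like nuclei. They had 300.0 CPM in uninjured replicate 1 (2 UMIs in 11 nuclei) and 382 CPM in replicate 2 (98 UMIs in 58 nuclei). The later libraries had 16 and 19.9 CPM at day 3, 21 CPM at day 5 and 60.0 CPM at day 7, each below both uninjured values (the plot of Fgfr1 by library). The 98 UMIs of replicate 2 were spread over 30 nuclei, with at most 14 in 1 nucleus. The 4 immune-like clusters, with only 32, 17, 7 and 2 nuclei in that library, were each at 353 CPM or more in it. In these nuclei the fibroblast markers summed to 199 CPM, against 8061 CPM in fibroblast-like nuclei of the same library, where Fgfr1 was at 460 CPM. All 5 fibroblast markers had at least 1 UMI in them. The fibroblast sum in immune-like nuclei was 28.0 and 75.3 CPM at day 3, and was 150 CPM in uninjured replicate 1. The SSPC sum was 300.0 and 113 CPM in the uninjured replicates and 8.00 and 142 CPM at day 3. The part of stromal RNA in the Fgfr1 level beyond these sums was not tested.

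**Figure D4:**
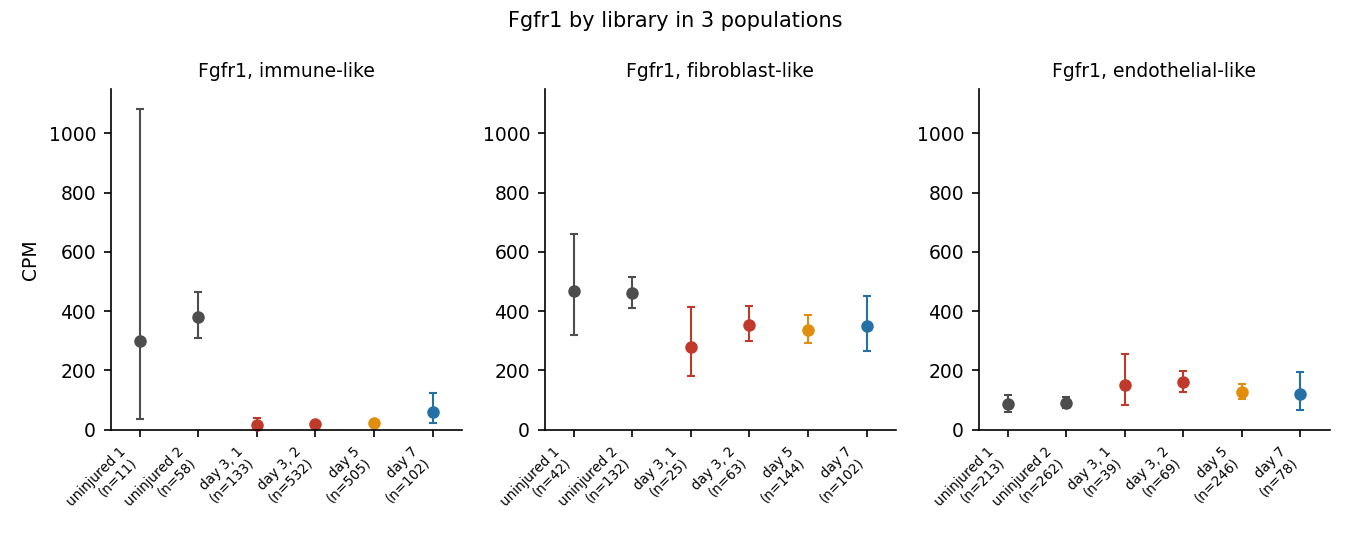
Fgfr1 in CPM by library in immune-like, fibroblast-like and endothelial-like nuclei. Points are libraries and bars are 95% exact Poisson intervals (counting error only). Immune-like nuclei went from 300.0 and 382 CPM in the uninjured libraries to 16 to 60.0 CPM after fracture, and endothelial-like nuclei lay between 85.5 and 160 CPM.

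Fgfr2 (ENSMUSG00000030849, minus strand of chromosome 7) is a receptor with known roles in osteoblast progenitors. It had its highest level in osteoblast-like nuclei, at 953 CPM (895 to 1013), followed by tendon-like (455 CPM), Schwann-like (436 CPM) and chondrocyte-like nuclei (386 CPM), whose intervals overlapped in turn. After thinning, 30.2% of osteoblast-like nuclei had a Fgfr2 UMI, against 3.81% of immune-like nuclei. Osteoblast-like nuclei had 578 and 1350 CPM before injury, 561 and 1745 CPM at day 3, 657 CPM at day 5 and 1039 CPM at day 7. The uninjured and day 3 ranges overlapped, days 5 and 7 lay within both, and the 2 lowest values came from 13 and 4 UMIs. Day 7 stood at 1.58-fold day 5 in osteoblast-like nuclei (1.23 to 2.01), where 21 of the 79 day 7 UMIs came from 1 nucleus. In chondrocyte-like nuclei it stood at 0.746-fold (0.621 to 0.894). Tendon-like nuclei had 0 CPM in uninjured replicate 1 (4 nuclei), 641 CPM in uninjured replicate 2 (38 of 129 UMIs in 1 nucleus), 126 and 204 CPM at day 3, 493 CPM at day 5 and 612 CPM at day 7.

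The Fgfr2 gene model bears on these counts. In GENCODE mouse release 21 the gene spans 130162451 to 133123350 on chromosome 7, 2960.9 kb, because of 1 of its 27 transcripts, and this window holds 36 other genes on the same strand. RefSeq gives a span of 104.4 kb, which was used for the level per length above. Which annotation release underlies the deposited counts of each library is not given in the sources used here. The gene lists differed, with 31055 genes in both uninjured libraries and day 3 replicate 2. Day 3 replicate 1 and day 7 listed 32285 genes, and day 5 listed 32287. The list thus differed between the day 3 replicates, and at days 5 and 7 it cannot be told apart from the time point. The part of the annotation in the Fgfr2 level was not tested. Among blood-derived cells, neutrophil-like nuclei had 278 CPM of Fgfr2, immune-like nuclei 113 CPM and osteoclast-like nuclei 105 CPM. The other 7 genes span between 15.4 and 122.3 kb. Fgf1, Fgf2 and Fgf7 overlap Arhgap26, Nudt6 and Fam227b on the opposite strand, and whether counting used strand is not given in the sources used here.

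Fgfr3 (ENSMUSG00000054252, chromosome 5, 33721674 to 33737068, plus strand) was highest in chondrocyte-like nuclei, with 197 CPM (176 to 221) and 60.1% of the 511 Fgfr3 UMIs. Osteoblast-like nuclei had 42.3 CPM and endothelial-like nuclei 27.4 CPM, with overlapping intervals. After thinning, 12.5% of chondrocyte-like nuclei had a UMI, against 0.224% of immune-like nuclei, at median depths of 2323 and 2299 UMIs. Chondrocyte-like nuclei were at 200.0 CPM in day 3 replicate 2 (6 nuclei), 173 CPM at day 5 (164 nuclei) and 243 CPM at day 7 (242 nuclei). Day 7 stood at 1.40-fold day 5 (1.11 to 1.77), as Fgfr1 was higher and Fgfr2 lower in the same nuclei. The stromal Fgfr3 level was 0 and 14 CPM in the uninjured libraries, 2.55 and 11.8 CPM at day 3, 37.5 CPM at day 5 and 96.1 CPM at day 7. Chondrocyte-like nuclei made up 16.8% and 36.8% of stromal nuclei at days 5 and 7 and at most 2.38% in the other libraries, and they held 82.9% and 93.8% of the stromal Fgfr3 UMIs at days 5 and 7. Endothelial-like nuclei had Fgfr3 at 97.3 and 25.8 CPM in the uninjured libraries, 0 and 15.4 CPM at day 3, 7.40 CPM at day 5 and 7.94 CPM at day 7. The zero of day 3 replicate 1 allows up to 32.5 CPM (3 UMIs), so that library is not shown to lie below uninjured replicate 2, and the 8 UMIs of day 3 replicate 2 came from 3 nuclei.

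The change at day 3 was tested with edgeR's quasi-likelihood test on UMIs summed per library, 2 uninjured against 2 day 3 libraries, over all genes that passed the filter on low counts. In stromal nuclei 9.25% of 9336 genes were called at an adjusted p under 0.05, 410 higher (4.39%) and 454 lower (4.86%). Of the 8 FGF genes, 6 passed the filter and none was called, and their median log2 fold change was -0.67 against 0.11 over all genes tested. At an unadjusted p under 0.05 there were 2 of the 6, Fgf7 and Fgf1. The share of all 9336 genes under this looser limit is not given here. The 2 genes are therefore not shown to exceed that share. Fgf10 and Fgfr3 were too low in these 4 libraries to be tested.

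Fgf7 had 286 and 516 CPM in uninjured and 133 and 226 CPM in day 3 stromal nuclei, without overlap. Its log2 fold change was -1.18 ± 0.38 (SE, n = 2 libraries per group) with an edgeR adjusted p of 0.0778. Leaving out 1 library gave -1.62 without uninjured replicate 1 (edgeR adjusted p = 0.0105), -0.69 without uninjured replicate 2 (0.416), -0.996 without day 3 replicate 1 (0.280) and -1.44 without day 3 replicate 2 (0.0469). The call was thus reached or not depending on the library. It was also reached without integration (-2.57, 0.00561) and with a looser filter on nuclei (-1.40, 0.0450). IIFC-like nuclei were 12 of 84 and 30 of 305 stromal nuclei in the uninjured libraries and 83 of 120 and 165 of 267 at day 3, so the mix of populations changed with the group. With fibroblast-like and SSPC-like nuclei only, the log2 fold change was -0.35 (edgeR adjusted p = 0.771), and with the Brinp1/Pdzrn4 cluster added to these it was -0.69 (0.445).

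Fgf1 had 46.4 and 18.6 CPM in uninjured and 7.66 and 3.36 CPM in day 3 stromal nuclei, from 3 to 24 UMIs per library. Its log2 fold change was -2.54 ± 0.86 (SE) with an edgeR adjusted p of 0.0984. Over all nuclei in place of stromal ones, mural nuclei included, Fgf1 was called lower (-3.29, edgeR adjusted p = 0.0317). Pericyte/SMC-like nuclei were 61 of 477 and 64 of 910 nuclei in the uninjured libraries. They were 4 of 348 and 9 of 1444 in the day 3 libraries, and the part of this mix in the call was not tested. Fgf1 was called under none of the other alternatives in which it was tested, and without day 3 replicate 2 its stromal value was -1.65. The other 4 genes were Fgf2 at -0.16 (0.891), Fgfr1 at -0.45 (0.505), Fgfr2 at -0.60 (0.544) and Fgf18 at -0.74 (0.715), as log2 fold change with the edgeR adjusted p in parentheses.

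Fgf2 and Fgfr2 were both within the spread of the replicates in stromal nuclei. Fgf2 was at 101 and 124 CPM in uninjured and at 130 and 72.8 CPM in day 3 stromal nuclei. Fgfr2 was at 178 and 441 CPM in uninjured and at 105 and 327 CPM in day 3 stromal nuclei. Fgfr1 did not overlap, with 495 and 541 CPM against 319 and 431 CPM.

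In immune-like nuclei 0.495% of 4645 genes were called, 1 higher (0.0215%) and 22 lower (0.474%). Fgfr1 was one of the 22, with a log2 fold change of -4.10 ± 0.74 (SE) and an edgeR adjusted p of 3.1e-05, and Fgfr2, the other gene tested, had -0.95 (edgeR adjusted p = 0.999). The glypican gene Gpc6 was also among the 22 (-3.23, edgeR adjusted p = 0.00572). Without the filter on low counts, Fgf10 had -4.83, Fgf7 -3.32, Fgf2 -2.97 and Fgfr3 -1.31. Fgf18 had 1.65 and Fgf1 6.25 in that setting, and none of these genes was called. The Fgfr1 call was lost with DESeq2 (-3.96, adjusted p = 0.0896), without uninjured replicate 2 (-2.57, edgeR adjusted p = 0.321), without day 3 replicate 1 (-3.76, 1.00) and without day 3 replicate 2 (-3.93, 0.999). Uninjured replicate 1 held only 6667 UMIs in its 11 immune-like nuclei. The test shares its estimate of spread over genes, so the edgeR adjusted p of 3.1e-05 is not a measure of the spread of Fgfr1 alone.

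In endothelial-like nuclei 3.82% of 7176 genes were called, 1.9% higher and 1.92% lower, and none of the 3 FGF genes that passed the filter. Fgfr3 had a log2 fold change of -2.41 ± 0.94 (SE, edgeR adjusted p = 0.224), and was called lower where no filter on low counts was used (edgeR adjusted p = 0.0182). Single libraries set its size, with -1.26 without uninjured replicate 1 (edgeR adjusted p = 0.837) and -8.08 without day 3 replicate 2 (0.377), when day 3 held no UMI. Fgfr1 was at 85.5 and 90.7 CPM in uninjured and at 151 and 160 CPM in day 3 endothelial-like nuclei, without overlap. Its log2 fold change was 0.70 ± 0.32 (SE, edgeR adjusted p = 0.311), opposite in sign to that in stromal and immune-like nuclei. Fgfr2 had -0.42 (edgeR adjusted p = 0.717).

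The difference between the day 3 changes of stromal and endothelial-like nuclei was tested with an interaction term and library as a block. Of 8884 genes 4.29% were called, 1.91% higher and 2.38% lower, and Fgf7 and Fgf1 were called lower among the FGF genes. Neither gene passed the filter in endothelial-like nuclei alone, and both entered this test through their stromal UMIs, so the calls are given as values and as no support for a difference. The stromal change of Fgf7 was 2.96 log2 units below the endothelial one (-2.96 ± 0.76 SE, edgeR adjusted p = 0.0173), and that of Fgf1 was 5.40 log2 units below it (-5.40 ± 1.41 SE, 0.0186). Endothelial-like nuclei held few UMIs of both genes, 1 and 6 of Fgf7 in uninjured against 1 and 9 in day 3 libraries, and 1 and 3 of Fgf1 against 1 and 12. Both calls were lost without uninjured replicate 2 (edgeR adjusted p = 0.249 for Fgf7 and 0.263 for Fgf1) and without day 3 replicate 2 (0.764 and 0.860). For Fgfr1, whose estimates had opposite signs in the 2 populations, the difference was -1.15 (edgeR adjusted p = 0.110).

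**Figure D5:**
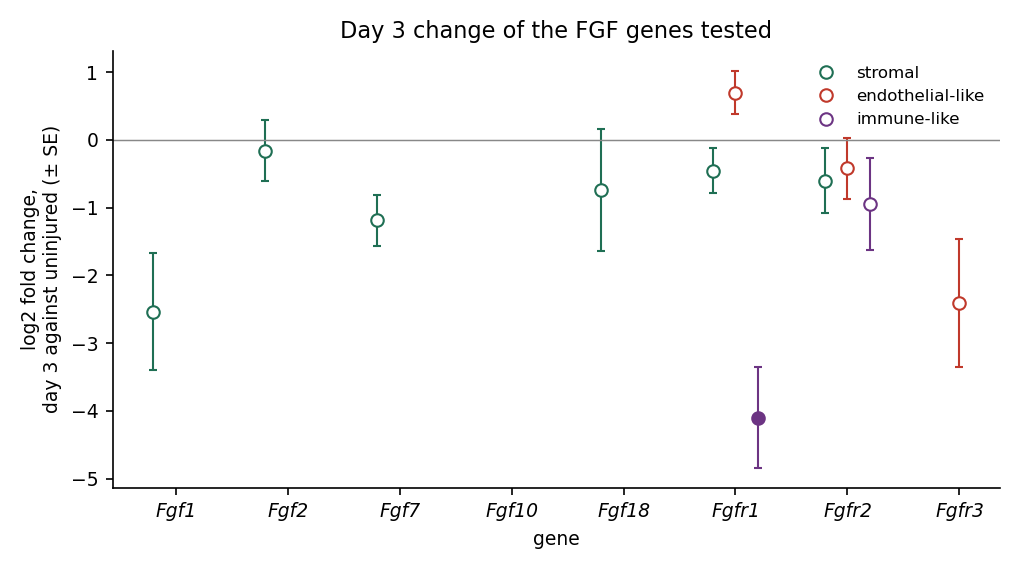
Log2 fold change of day 3 over uninjured for each FGF gene that passed the filter, in stromal, endothelial-like and immune-like nuclei. Points are edgeR estimates, bars are SE, and filled points were called at an adjusted p under 0.05. The only filled point is Fgfr1 in immune-like nuclei, at -4.10.

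The rest of the FGF system was followed in 74 genes of 10 lists, from other ligands to heparan sulfate genes and targets. In the stromal test 41 passed the filter, of which 4 were called higher and 5 lower, beside 9.25% of all genes called. Among other ligands 2 of 10 passed and both were called lower. Fgf9, a ligand of FGFR3 and other receptors, was at 54.1 and 41.1 CPM in uninjured and at 0 and 2.80 CPM in day 3 stromal nuclei (log2 fold change -4.39, edgeR adjusted p = 0.00658). Fgf16 was at 38.7 and 27.2 CPM against 7.66 and 1.12 CPM (-3.47, 0.0426). For both genes the uninjured and day 3 libraries did not overlap. SSPC-like nuclei, where Fgf16 was highest, were 22 of 84 and 62 of 305 stromal nuclei in the uninjured libraries. They were 4 of 120 and 5 of 267 in the day 3 libraries. The part of the changed mix of populations in the Fgf9 and Fgf16 values was not tested.

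Of 18 heparan sulfate genes tested, 1 was called lower and 2 higher. Gpc3, a glypican carrying heparan sulfate chains, fell from 812 and 415 CPM to 53.7 and 53.8 CPM (log2 fold change -3.47, edgeR adjusted p = 0.00118), the single call among 8 proteoglycan genes tested. The sulfotransferases Hs6st2 and Hs6st3, which add sulfate to heparan sulfate, rose by 2.58 (edgeR adjusted p = 0.0442) and 2.90 (0.0265) log2 units, the 2 calls among 10 enzyme genes tested. Of the 3 cell surface partners tested, all were called: Cdh2 (N-cadherin) rose by 2.52 (0.00915) and Ncam1 by 2.13 (0.00764), while Flrt2 fell by 1.95 (0.0125). IIFC-like nuclei made up 14.3% and 9.8% of stromal nuclei in the uninjured libraries and 69.2% and 61.8% in the day 3 libraries. The part of this mix in the values of these heparan sulfate and cell surface genes was not tested.

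Of the 14 targets and feedback inhibitors of FGF signalling 7 passed the filter and 1 was called. Etv1, an ETS transcription factor, was at 155 and 56.7 CPM in uninjured and at 12.8 and 19.0 CPM in day 3 stromal nuclei (log2 fold change -2.51, edgeR adjusted p = 0.0251). The median over the 7 was -0.23. Il17rd had -1.57 (edgeR adjusted p = 0.097), Spred2 -0.63 (0.320), Spry2 -0.23 (0.890), Etv5 0.37 (0.810), Spred1 0.54 (0.448) and Spred3 0.69 (0.644). The part of the changed mix of stromal populations in the Etv1 value was not tested. None of the 8 adaptor genes tested was called. In endothelial-like nuclei 32 of the 74 genes passed, with 1 called in each direction, beside 3.82% of all genes. In immune-like nuclei 22 passed with 1, Gpc6, called lower, beside 0.495% of all genes.

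Other FGF genes with at least 20 CPM in a population were mostly FGF homologous factors, which stay inside the cell and bind sodium channels. Fgf14 was at 759 CPM and Fgf13 at 579 CPM in pericyte/SMC-like nuclei, where Fgf1 was also highest. These pooled levels mixed time points. Fgf14 had 2339 and 971 CPM in the uninjured libraries, 346 and 0 CPM at day 3 (4 and 9 nuclei), 3.22 CPM at day 5 and 22.4 CPM at day 7. Fgf13 had 605 and 1121 CPM in the uninjured libraries, 230 and 261 CPM at day 3, 139 CPM at day 5 and 112 CPM at day 7. Fgf12 was highest in Schwann-like nuclei at 121 CPM. Fgf9 reached 30.2 CPM in tendon-like and Fgf16 32.9 CPM in SSPC-like nuclei. Fgfrl1, a receptor without a kinase domain, was highest in chondrocyte-like nuclei at 62.3 CPM, the population with the highest Fgfr3.

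Likeness of pattern was measured as Pearson's r of log2(CPM + 10) over 48 sums of a population in a library, against 10374 genes. The sums of 1 library share its depth, so r is given as a description without a p. The closest genes were Ntrk3 (r = 0.83), Hif3a and Grip2 for Fgf1, Mid1 (0.78), Slit3 and Lama2 for Fgf7, and Aldh1a1 (0.78), Slit3 and Hoxa10 for Fgf2. For Fgf10 they included St6galnac5 (0.74) and Trhde, and for Fgf18 they were Gas8 (0.73), Fst and Gfpt2. Fgfr1 was closest to Kirrel (0.76), Nfix and Bicc1, Fgfr2 to Ptprd (0.77), Dlx6os1 and Lrp4, and Fgfr3 to Eps8l2 (0.79), Rab27b and Alpl. Slit3 was thus near the top for both Fgf2 and Fgf7. Among the 8 genes themselves the highest r values were 0.71 for Fgf7 with Fgfr1, 0.68 for Fgf2 with Fgf7 and 0.66 for Fgf2 with Fgfr1.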

How the data were processed

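The authors deposited 6 matrices of UMI counts of genes in barcodes, 1 per library, made with Cell Ranger (6.0.0 for uninjured replicate 1, day 5 and day 7, 7.1.0 for the others, per the file headers) from intronic and exonic reads on mm10 and not normalized. A label protocol names a human reference, but the files hold mouse gene identifiers. The 13551 barcodes held 55293921 UMIs. Counts were limited to the 30406 genes common to all libraries.

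Kept were 8201 nuclei in which 200 to 5000 genes were detected and in which mitochondrial UMIs stayed below 2% and those of ribosomal proteins below 1.5%. Clusters of myogenic nuclei were removed per library, and the remaining 6561 nuclei were integrated with Seurat (canonical correlation anchors, 2000 features, 20 components, resolution 1.3) without the marker and FGF list genes among the features, which gave 26 clusters in 14 named populations. A further 159 myogenic-like nuclei were left out. Doublets marked by Scrublet were kept, since the methods name no caller.

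CPM were computed from UMIs summed over nuclei, with exact Poisson intervals, and shares of nuclei from nuclei thinned to 500 UMIs (25 shallower nuclei left out) with Clopper-Pearson intervals. A count of 0 allows up to 3 UMIs. Day 3 was tested against uninjured on sums of at least 10 nuclei with edgeR (filterByExpr, TMM, glmQLFit, glmQLFTest), with Benjamini-Hochberg adjustment over all genes tested. On simulated counts for the stromal test 160 of 178 genes changed by 3 log2 units were called among 8749 tested (89.89%), with 2 unchanged genes called. No test was made of days 5 and 7, with 1 library each. p-values rest on the spread between pools of mice as estimated with information shared over all genes tested, not on the spread of 1 gene alone.

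The 8 genes and the lists were chosen with earlier results of these data known. All 8 were named everywhere. List genes were named where called in the stromal test (at most 6 per direction and list), other FGF genes where they had at least 20 CPM in a population of at least 50 nuclei, and the 3 most alike genes per FGF gene among those with at least 50 CPM in 1 of the sums of at least 20 nuclei. One of these alike genes is not reported here. Alternatives were DESeq2, no TMM, no filter on low counts, each library left out, other stromal sets, all nuclei, no integration, resolution 0.8, looser limits on nuclei, doublets removed and other thinning depths. A stromal set of fibroblast-like, SSPC-like and Brinp1/Pdzrn4 nuclei was added after seeing the data. Columns of other series numbered 0. Gene positions follow GENCODE mouse release 21 (GRCm38) and RefSeq. Tools used were scanpy 1.11.5, Seurat 5.3.0 and matplotlib 3.10.9, with edgeR 4.0.16 and DESeq2 1.42.0 under R 4.3.3, and with pandas 2.3.3, scipy 1.17.1 and numpy 2.4.6 under Python 3.11.15.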

Additional observations from a re-analysis of the deposited data

Results flagged for a closer look

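Fgf7 and Fgf1 stood out because their day 3 changes were called different between stromal and endothelial-like nuclei. The stromal change minus the endothelial one was -2.96 log2 units for Fgf7 and -5.40 log2 units for Fgf1 (edgeR interaction test, adjusted p = 0.0173 and 0.0186, 2 libraries per group). The endothelial side rested on at most 9 UMIs of Fgf7 and 12 of Fgf1 per library, and 6 of the 12 Fgf1 UMIs of day 3 replicate 2 came from 1 nucleus. Neither gene passed the filter in endothelial-like nuclei alone, and both entered the test through their stromal UMIs, so the calls are no support for a difference. Both calls were lost without uninjured replicate 2 (edgeR adjusted p = 0.249 for Fgf7 and 0.263 for Fgf1) and without day 3 replicate 2 (0.764 and 0.860).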

How the results depend on the processing

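Under other settings the number of genes called in stromal nuclei (410 higher, 454 lower) became 230 higher with DESeq2, 133 higher and 166 lower with fibroblast-like and SSPC-like nuclei only, 202 higher when the Brinp1/Pdzrn4 cluster was added to these (chosen after seeing the data), 208 higher without integration and 766 lower with all nuclei. Leaving out 1 library gave 28 to 452 higher and 119 to 584 lower, the fewest without uninjured replicate 2. In endothelial-like nuclei (136 and 138) no filter on low counts gave 328 higher and 442 lower, and leaving out 1 library 0 to 149 higher and 0 to 215 lower, with 0 of both without uninjured replicate 2. In immune-like nuclei (1 and 22) DESeq2 gave 0 higher and 5 lower, no filter 3 and 43, and leaving out 1 library 0 to 7 higher and 0 to 44 lower. For the difference between populations (170 and 211), leaving out 1 library gave 64 to 186 higher and 91 to 253 lower.

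The sign of the Fgf2 change in stromal nuclei turned without uninjured replicate 2 (0.01), without day 3 replicate 2 (0.36), with tendon-like and nerve-sheath nuclei added (0.12), with fibroblast-like and SSPC-like nuclei only (0.43) and with the Brinp1/Pdzrn4 cluster added to these (0.20). It turned for Fgf18 without day 3 replicate 2 (0.29), and for Fgfr2 without uninjured replicate 2 (0.24 in stromal, 0.23 in endothelial-like and 0.72 in immune-like nuclei) and without integration (0.11 in stromal nuclei). In the difference between populations it turned for Fgf2 without uninjured replicate 2 (0.16) and without day 3 replicate 2 (0.54), and for Fgfr2 without the filter (0.016), without uninjured replicate 2 (0.15) and without day 3 replicate 1 (0.04). With 1 library left out, the log2 fold changes in stromal nuclei ranged from -0.80 to 0.36 for Fgf2, from -1.83 to 0.29 for Fgf18 and from -1.45 to 0.24 for Fgfr2, and those of Fgfr2 from -1.17 to 0.23 in endothelial-like and from -1.34 to 0.72 in immune-like nuclei. In the difference they ranged from -0.49 to 0.54 for Fgf2 and from -0.26 to 0.15 for Fgfr2. The values called above ranged, whether or not the call remained, from -4.30 to -2.57 for Fgfr1 in immune-like nuclei (-3.96 with DESeq2, call lost), and in the difference from -6.18 to -3.62 for Fgf1 and from -3.01 to -2.97 for Fgf7. The causes were not tested.

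Fgf2 in SSPC-like nuclei was at 124 CPM without integration, Fgf10 in fibroblast-like nuclei at 33.2 CPM at resolution 0.8, and Fgfr2 in osteoblast-like nuclei at 893 CPM with looser limits on nuclei. Shares of nuclei were higher at greater depth, 18.2% at 1000 UMIs and 36.0% without thinning for Fgf1 (pericyte/SMC-like), 16.7% and 33.3% for Fgf2 (SSPC-like), 24.0% and 40.7% for Fgf7 (fibroblast-like), 47.3% and 59.2% for Fgfr2 (osteoblast-like) and 19.7% and 42.4% for Fgfr3 (chondrocyte-like). Without thinning they were 7.48% for Fgf10 (fibroblast-like), 10.6% for Fgf18 and 68.3% for Fgfr1 (both SSPC-like). Removing doublets changed no nucleus in the tested sums.

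No paired analysis was possible because the labels carry no replicate number shared between groups. The test of pericyte/SMC-like nuclei and that of immune-like nuclei without integration (5 nuclei in uninjured replicate 1) were not run. Days 5 and 7 have 1 library each, and Fgf18, Fgf10 and Fgf1 had at most 490 UMIs in all populations, which limits what could be detected.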
